A study of Homo sapiens with 6 samples.

Results

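Core spliceosome snRNP genes were followed in HCT116 cells, a human colorectal carcinoma line, that overexpressed the RNA-binding protein RBM47. The members were the protein-coding genes of the count table whose symbols name a Sm or LSm protein, a protein of the U1, U2, U4/U6.U5 or U11/U12 small nuclear ribonucleoprotein particles (snRNPs), a SF3A, SF3B or U2AF subunit, or one of a fixed set of PRPF, DHX and PRP19 complex proteins, with a mean of at least 10 counts over the 6 libraries. They came to 58 of 28491 genes. The symbol pattern met 68 entries of the table, and the other 10 were processed pseudogenes with mean counts of 0.17 to 3.83. No protein-coding match fell under the minimum, and the lowest member, U2AF1, had a mean of 341 counts. SNRPN, which encodes the alternative Sm protein B of neural tissue, was not analysed here. All 58 members were among the 16260 genes that passed the filter on low counts.

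The spliceosome removes introns from pre-mRNA. Each snRNP holds a small nuclear RNA and a ring of Sm proteins, or of LSm proteins in the case of U6, and carries its own proteins. The U1 snRNP binds the 5' splice site, SF1 and the U2AF dimer mark the branch point and the 3' splice site, the U2 snRNP then pairs with the branch point, and the U4/U6.U5 tri-snRNP joins and is rearranged, with the PRP19 complex, into the catalytic spliceosome. These proteins are made in all dividing cells, and the study examined both gene expression and alternative splicing after RBM47 overexpression.

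The NC group was transfected with a control plasmid and the RBM47-OE group with a plasmid carrying the RBM47 transcript, both by lipofection, and the cells were harvested 48 h later. Each group had 3 poly(A) RNA libraries. Neither the labels nor the methods state whether the replicates were separate cultures, so p-values measure only the spread among these libraries, which may be technical. The transfection was transient, no selection of transfected cells is described, and the plasmid, the medium and the library kit are named differently in the labels (pcDNA3.1-3xFlag-RBM47, DMEM, NEBNext directional) and in the methods (pIRES-hrGFP-1a, McCoy's 5A, KC stranded). The libraries held 26792409 to 35477983 counts on genes. RBM47 itself had a FPKM (fragments on a gene scaled by its length and by the mapped fragments of the library) of 1.91 to 2.33 in NC and 127 to 131.3 in RBM47-OE, with a log2 fold change of 5.90 (adjusted p = 1.7e-25, edgeR's quasi-likelihood test). All 10 epithelial marker genes had counts and 6 had a mean FPKM of at least 1 (EPCAM, CDH1, KRT8, KRT18, KRT19 and CDX2), with a summed FPKM of 1888 to 2057 in NC and 1756 to 1983 in RBM47-OE. Fibroblast markers summed to at most 1.78 FPKM in any library, leukocyte markers to at most 0.48 and endothelial markers to at most 0.20.

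**Figure D1:**
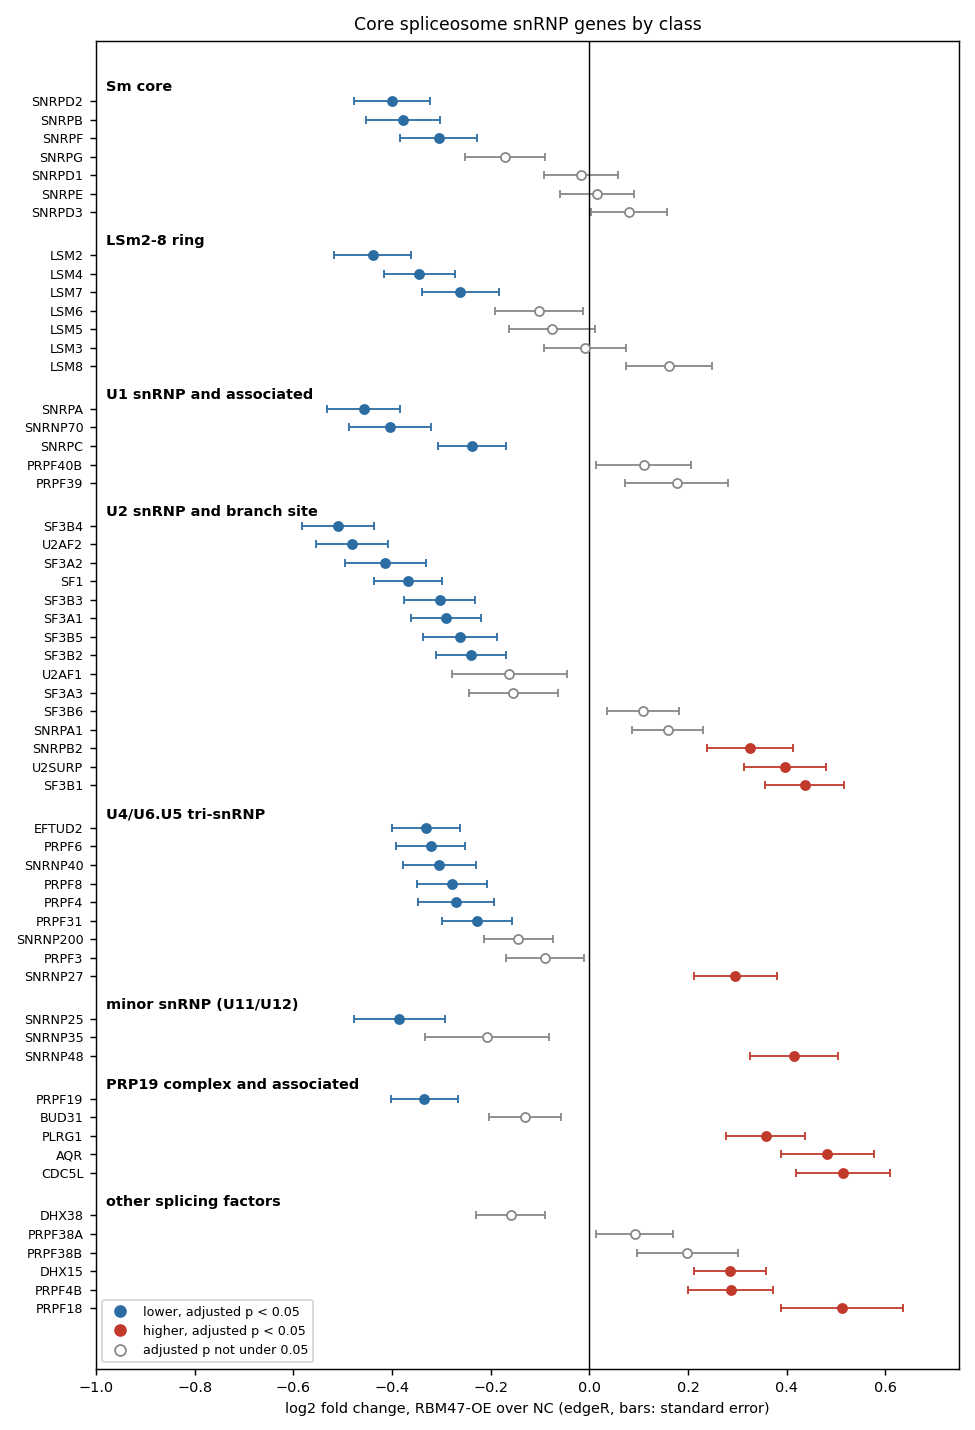
Log2 fold change (RBM47-OE over NC, from edgeR) of 57 of the 58 members on the horizontal axis, with bars for the standard error, grouped by snRNP class. Filled points passed an adjusted p under 0.05. The 25 lower members lie between -0.51 and -0.23 and the 11 higher members shown between 0.29 and 0.51, and the Sm and LSm rings and the tri-snRNP lie mostly left of 0.

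RBM47-OE libraries had less mRNA of 25 core snRNP genes and more of 12, and the size of each change was small. The lower genes were led by SF3B4, U2AF2, SNRPA and LSM2, and the higher genes included CDC5L, PRPF18 and AQR. At an adjusted p under 0.05 (edgeR's quasi-likelihood test, Benjamini-Hochberg adjustment over the 16260 genes), 25 of 58 members (43.1%) were lower, where 16.9% of all genes tested were lower. The 12 higher members (20.7%) were a share near the 19.1% of all genes tested that were higher. The lower members had log2 fold changes from -0.51 to -0.23 (median -0.33, adjusted p at most 0.014), and the higher members from 0.29 to 0.51 (median 0.41, adjusted p at most 0.011). The other 21 members had log2 fold changes from -0.21 to 0.20 and did not pass the test. The standard errors of all members lay between 0.067 and 0.126.

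The median log2 fold change of the members was -0.16, beside 3.96e-05 over all genes tested, and 37 members lay below 0 and 21 above. With the library totals in place of TMM factors the median over all genes moved to 0.06 and that of the members to -0.10. CPM values are counts scaled to a common library size with the TMM factors. Summed over the 58 genes they came to 8664, 8713 and 8475 for NC and to 7783, 7281 and 7830 for RBM47-OE, so that every RBM47-OE library was below every NC library. In these bulk samples a smaller share of cells with a transcript and less of it per cell cannot be told apart.

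In CPM, all 3 RBM47-OE libraries lay below all 3 NC libraries for 28 members (48.3%), among them each of the 25 lower members, DHX38, SNRNP200 and PRPF3. The same held for 23.4% of all genes tested. All 3 lay above for 14 members (24.1%), the 12 higher members with SNRPA1 and LSM8, beside 23.2% of all genes tested. For one gene alone, an exact two-sided permutation test of 3 libraries against 3 cannot go below p = 0.1. No member passed the thresholds of the study, an unadjusted p under 0.01 with a fold change over 1.5, in either direction in edgeR's quasi-likelihood test, DESeq2 or limma. In edgeR these thresholds took 1.51% of all genes tested as higher and 0.873% as lower. At an unadjusted p under 0.05 without a limit on the fold, 28 members were lower and 13 higher, beside 21.3% and 23% of all genes tested. DESeq2 also gave 25 lower and 12 higher members at an adjusted p under 0.05, where it called 16.2% of all genes lower and 18.8% higher.

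The level of the members in NC spanned SNRPB at 306 ± 4.05 FPKM (mean ± SD, n = 3) to U2AF1 at 0.913 ± 0.112, with a median of 21.8. Next to SNRPB came SNRPD2 at 270.3 ± 19.8, SF3B5 at 174 ± 6.03 and LSM4 at 126 ± 3.97. Above U2AF1 in the order stood LSM8 at 1.25 ± 0.0608, AQR at 1.67 ± 0.101, PRPF40B at 1.89 ± 0.0115 and SNRNP35 at 2.34 ± 0.226. The ranges of the 3 NC libraries did not overlap between neighbours in either of these runs of genes, and they did not overlap for 30 of the 57 neighbouring pairs in the whole order. The lower members had a median NC level of 46.6 FPKM and the higher members one of 8.76. Across the 58 members, Spearman's rho between the NC level and the log2 fold change was -0.67. This is a description across genes that share the same 6 libraries.

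The promoters of these genes were read from RefSeq (GRCh38.p14), as the 250 bases before and 50 bases after each start, for the 50 members that matched by symbol, which had 58 promoters. Of 4 letter strings searched on both strands, CCGGAAGT, a match to the binding sequence of ETS family transcription factors, was in 16 of the 58 (27.6%), beside 7.06% of the 16106 promoters of tested genes and 4.14% of all 35116 promoters. The strings were chosen with the promoters in view, and none of the 4 contains another. By gene, the letters were in 7 of 24 lower, 3 of 10 higher and 6 of 16 other members. The GC box letters GGGCGG were in 60.3% of member promoters and 65.9% of those of tested genes, the letters CCAAT in 41.4% and 34.5%, and TATAAA, as in the TATA box, in 1.72% and 6.09%. Below, 30 bases around the letters are shown for some of the members that carry them. Of the lower members with the letters and all 30 bases among the 250 before the RefSeq start, the 3 with the largest change are shown. Of the 3 higher members with the letters, 2 are shown (around the third the 30 bases would pass the start). The stretches all end before the RefSeq start and are written 5' to 3' on the strand of the gene, with the letters in capitals. They lie at chr1:149927811-149927840 (minus strand) for SF3B4, chr19:55654994-55655023 (plus) for U2AF2, chr20:2470812-2470841 (minus) for SNRPB, chr3:143001462-143001491 (plus) for U2SURP and chr15:34969808-34969837 (minus) for AQR.
SF3B4: ccgtcttcgccCCGGAAGTggaagtcgtgc
U2AF2: gccggcggcggCCGGAAGTagccgaagcca
SNRPB: agtgagctggaCCGGAAGTaggtttctacc
U2SURP: aattactgacaCCGGAAGTcacgtgagcgg
AQR: cgcctgcatgaACTTCCGGctacacgccat
The first capital stands at -26, -30, -41, -97 and -84 from the start in this order, and in AQR the letters are on the other strand. The same letters thus stood before a RefSeq start of genes that fell and of genes that rose. The stretches of U2AF2, SNRPB and U2SURP lie inside the gene spans given below, and those of SF3B4 and AQR lie outside them. A match describes the sequence and does not show that a factor binds there.

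Of the 7 Sm core genes, which encode the ring around the U1, U2, U4 and U5 RNAs, 3 fell and 4 did not pass the test, with a median log2 fold change of -0.17. SNRPB, the gene of Sm proteins B and B' and the most abundant member, lies at chr20:2461634-2470853 on the minus strand. The FPKM of SNRPB across NC replicates 1 to 3 was 308, 309 and 301, against 268, 235 and 238 across RBM47-OE replicates 1 to 3. Every RBM47-OE library was below every NC library, with replicate 1 the highest of the 3, and the log2 fold change was -0.38 (SE 0.075, adjusted p = 4.7e-04, edgeR). SNRPD2 stood at 283, 281 and 248 FPKM in NC and at 228, 207 and 211 FPKM in RBM47-OE. This gene, at chr19:45687460-45692569 on the minus strand, encodes SmD2, and its groups did not overlap either, with a log2 fold change of -0.40 (SE 0.076, adjusted p = 3.4e-04, edgeR). SNRPF (SmF) fell by 0.31 on the log2 scale, from 29.7 ± 1.15 to 25.2 ± 2.15 FPKM (adjusted p = 0.0035). The others had log2 fold changes of -0.17 for SNRPG, -0.017 for SNRPD1, 0.016 for SNRPE and 0.081 for SNRPD3.

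In the LSm2-8 ring, which binds the 3' end of U6 RNA, 3 of 7 genes fell, none rose, and the median was -0.10. In FPKM, LSM2 had 49.2, 53.0 and 51.2 in NC, compared with 42.4, 37.6 and 38.8 in RBM47-OE. LSM2 (chr6:31797396-31806966 on the minus strand) did not overlap between groups, and its log2 fold change was -0.44 (SE 0.078, adjusted p = 1.9e-04, edgeR). LSM4 measured 129.7, 127 and 122 FPKM in NC, and 109.7, 101 and 103 FPKM in RBM47-OE. LSM4 at chr19:18306236-18323112 on the minus strand, the most abundant gene of the ring, was lower in each RBM47-OE library than in any NC library, with a log2 fold change of -0.34 (SE 0.072, adjusted p = 7.5e-04, edgeR). LSM7 fell by 0.26 (adjusted p = 0.011, edgeR). LSM6, LSM5, LSM3 and LSM8 had -0.10, -0.076, -0.0083 and 0.16.

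All 3 genes of the U1 snRNP's own proteins were lower in RBM47-OE. SNRPA stood at 41.4, 41.5 and 41.7 FPKM in NC and at 34.3, 31.8 and 29.3 FPKM in RBM47-OE. SNRPA, at chr19:40750637-40765389 on the plus strand, encodes the A protein of the U1 snRNP, which holds a stem-loop of U1 RNA, and the NC libraries differed from each other by less than 1 FPKM, with RBM47-OE well below. Its log2 fold change was -0.46 (SE 0.074, adjusted p = 8.8e-05, edgeR). SNRNP70 stood at 47.6, 50.2 and 47.2 FPKM in NC and at 42.7, 33.3 and 39.0 FPKM in RBM47-OE. SNRNP70 (chr19:49085419-49108605 on the plus strand) encodes U1-70K, the RBM47-OE libraries were more spread than the NC libraries without reaching them, and the log2 fold change was -0.40 (SE 0.083, adjusted p = 6.8e-04, edgeR). In FPKM, SNRPC had 71.7, 74.8 and 71.0 in NC, compared with 65.4, 65.5 and 62.8 in RBM47-OE. The groups of SNRPC (chr6:34757505-34773857 on the plus strand), the gene of a zinc-finger protein that helps to recognise the 5' splice site, were apart by a smaller step, -0.24 (SE 0.069, adjusted p = 0.0091, edgeR).

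The U1-associated genes PRPF40B and PRPF39 had log2 fold changes of 0.11 and 0.18 and did not pass the test.

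The U2 snRNP and branch site class was the largest, with 8 lower, 3 higher and 4 uncalled genes of 15 and a median of -0.24. Within it the genes with an SF3B symbol, for subunits of the complex that clamps the branch point, split. SF3B4, SF3B3, SF3B5 and SF3B2 fell, SF3B1 rose, and SF3B6 (0.11) did not pass the test. SF3B4 measured 52.0, 54.2 and 54.1 FPKM in NC, and 38.8, 37.5 and 42.1 FPKM in RBM47-OE. SF3B4 (chr1:149923317-149927803 on the minus strand) had the largest fall of all members, no RBM47-OE library came near the NC libraries, and the log2 fold change was -0.51 (SE 0.072, adjusted p = 3.4e-05, edgeR). SF3B1 stood at 22.4, 21.8 and 22.2 FPKM in NC and at 26.9, 32.0 and 35.7 FPKM in RBM47-OE. SF3B1, at chr2:197388515-197435079 on the minus strand, encodes the scaffold that holds the branch point adenosine, and the 3 RBM47-OE libraries lay above NC in steps, with replicate 1 lowest, for a log2 fold change of 0.44 (SE 0.080, adjusted p = 2.5e-04, edgeR). SF3B5 stood at 170.1, 181 and 170.3 FPKM in NC and at 163, 143 and 149.9 FPKM in RBM47-OE. For SF3B5 (chr6:144094884-144095573 on the minus strand), a small subunit and the most abundant gene of the class, RBM47-OE replicate 1 lay just below the NC range and the others further down, -0.26 (SE 0.074, adjusted p = 0.0074, edgeR). SF3B3 fell by 0.30 and SF3B2 by 0.24. With a GC offset, which takes out of each library the trend of all tested genes with exonic GC content, SF3B4 and SF3B3 remained lower and the calls of SF3B1, SF3B5 and SF3B2 were lost, SF3B1 at 0.11.

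Of the genes that mark the branch point and the 3' splice site, U2AF2 and SF1 fell, and U2AF1 (-0.16) did not pass the test. In FPKM, U2AF2 had 87.5, 91.8 and 89.3 in NC, compared with 71.8, 65.0 and 65.3 in RBM47-OE. U2AF2, at chr19:55654146-55674716 on the plus strand, encodes the large U2AF subunit, which binds the polypyrimidine tract, and both groups were tight and apart, with a log2 fold change of -0.48 (SE 0.073, adjusted p = 4.9e-05, edgeR). SF1, the branch point binding protein, fell by 0.37 (adjusted p = 3.1e-04), from 46.5 ± 1.37 to 37.9 ± 0.760 FPKM. SF3A2 measured 33.5, 37.8 and 37.7 FPKM in NC, and 32.2, 28.0 and 25.6 FPKM in RBM47-OE. SF3A2 (chr19:2236824-2248655 on the plus strand), a subunit of the SF3A complex that joins SF3B to the U2 snRNP, had its highest RBM47-OE library next to its lowest NC library without overlap, with a log2 fold change of -0.41 (SE 0.083, adjusted p = 5.2e-04, edgeR). SF3A1 fell by 0.29, and SF3A3 had a log2 fold change of -0.15. U2SURP stood at 7.73, 7.46 and 7.59 FPKM in NC and at 8.63, 11.3 and 11.7 FPKM in RBM47-OE. U2SURP, at chr3:142964497-143060725 on the plus strand, encodes a U2-associated SR-related protein, was higher in each RBM47-OE library, least in replicate 1, and had a log2 fold change of 0.40 (SE 0.083, adjusted p = 7.5e-04, edgeR). SNRPB2, a U2 protein gene, rose by 0.33 (adjusted p = 0.0050), and its partner SNRPA1 had 0.16, which did not pass the test (adjusted p = 0.085, both edgeR).

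Of the 9 tri-snRNP genes, 6 fell and 1 rose, and the median was -0.27, the lowest median of the 8 classes. PRPF8 stood at 47.1, 47.8 and 47.7 FPKM in NC and at 42.4, 40.5 and 40.6 FPKM in RBM47-OE. PRPF8 (chr17:1650629-1684867 on the minus strand) encodes the large U5 protein that holds the catalytic centre, the NC libraries were within 1 FPKM of each other, and all RBM47-OE libraries were lower, -0.28 (SE 0.070, adjusted p = 0.0034, edgeR). EFTUD2, the U5 GTPase, fell by 0.33, PRPF6, which bridges U5 and U4/U6, by 0.32, SNRNP40, a U5 WD-repeat protein, by 0.30, and the U4/U6 proteins PRPF4 and PRPF31 by 0.27 and 0.23. The helicase gene SNRNP200, whose product unwinds U4 from U6, and PRPF3 had -0.14 and -0.09 and did not pass the test. SNRNP27, a tri-snRNP protein of the SR-related kind, rose by 0.30 (adjusted p = 0.0074, edgeR), from 14.8 ± 0.690 to 19.1 ± 1.33 FPKM.

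The 3 minor snRNP genes, whose products sit on U11 and U12 and serve the rare introns of the minor spliceosome, went different ways. In FPKM, SNRNP25 had 12.3, 10.8 and 11.2 in NC, compared with 9.52, 8.66 and 9.39 in RBM47-OE. SNRNP25 (chr16:53828-57669 on the plus strand) was lower in all RBM47-OE libraries, -0.39 (SE 0.092, adjusted p = 0.0021, edgeR). SNRNP48 measured 4.66, 4.59 and 4.59 FPKM in NC, and 5.52, 7.45 and 6.46 FPKM in RBM47-OE. SNRNP48, at chr6:7590198-7611967 on the plus strand, was higher, with all 3 NC libraries close together and RBM47-OE replicate 2 the highest, 0.42 (SE 0.089, adjusted p = 9.5e-04, edgeR). SNRNP35 had -0.21 and did not pass the test (adjusted p = 0.21, edgeR). With the GC offset none of the 3 was called, and SNRNP25 had -0.23 and SNRNP48 0.03 (adjusted p = 0.054 and 0.83, edgeR).

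Among the genes of the PRP19 complex and its associates 3 of 5 rose and 1 fell, and the median was 0.36. PRPF19 stood at 66.7, 67.2 and 67.6 FPKM in NC and at 54.6, 56.2 and 57.1 FPKM in RBM47-OE. PRPF19 (chr11:60890547-60906585 on the minus strand), the ubiquitin ligase that names the complex, was below NC in each RBM47-OE library, -0.33 (SE 0.067, adjusted p = 5.5e-04, edgeR). CDC5L stood at 6.12, 6.32 and 6.24 FPKM in NC and at 7.26, 10.2 and 10.7 FPKM in RBM47-OE. CDC5L (chr6:44387706-44450425 on the plus strand), a core scaffold and the member with the largest rise, had RBM47-OE replicates 2 and 3 far above NC and replicate 1 between, and its log2 fold change was 0.51 (SE 0.096, adjusted p = 2.8e-04, edgeR). In FPKM, AQR had 1.65, 1.58 and 1.78 in NC, compared with 2.07, 2.60 and 2.70 in RBM47-OE. AQR, at chr15:34851782-34969742 on the minus strand, an RNA helicase that binds introns, was low throughout and higher in RBM47-OE, 0.48 (SE 0.094, adjusted p = 4.1e-04, edgeR). PLRG1 measured 12.7, 12.6 and 12.1 FPKM in NC, and 14.5, 17.1 and 18.8 FPKM in RBM47-OE. PLRG1 (chr4:154535005-154550400 on the minus strand), a WD-repeat partner of CDC5L, rose by 0.36 (SE 0.080, adjusted p = 0.0013, edgeR), and BUD31 had -0.13 and did not pass the test. With the GC offset CDC5L was at 0.17 and no longer passed the test (adjusted p = 0.089, edgeR), and PRPF19 was at -0.16 (adjusted p = 0.042, edgeR).

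The remaining 6 splicing factors held 3 higher genes and none that fell, with a median of 0.24. PRPF18 stood at 5.36, 5.20 and 5.00 FPKM in NC and at 5.92, 8.55 and 8.92 FPKM in RBM47-OE. PRPF18 (chr10:13586939-13668445 on the plus strand) acts in the second catalytic step, RBM47-OE replicate 1 lay just above NC and the other two well above, and the log2 fold change was 0.51 (SE 0.12, adjusted p = 0.0024, edgeR). DHX15 stood at 19.1, 18.5 and 17.9 FPKM in NC and at 22.1, 23.3 and 25.8 FPKM in RBM47-OE. DHX15 (chr4:24517441-24584554 on the minus strand), the helicase that takes the spliceosome apart after splicing, was above NC in every RBM47-OE library, 0.29 (SE 0.073, adjusted p = 0.0034, edgeR). The kinase gene PRPF4B rose by 0.29 (adjusted p = 0.011, edgeR). PRPF38A, PRPF38B and DHX38 had 0.092, 0.20 and -0.16.

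**Figure D2:**
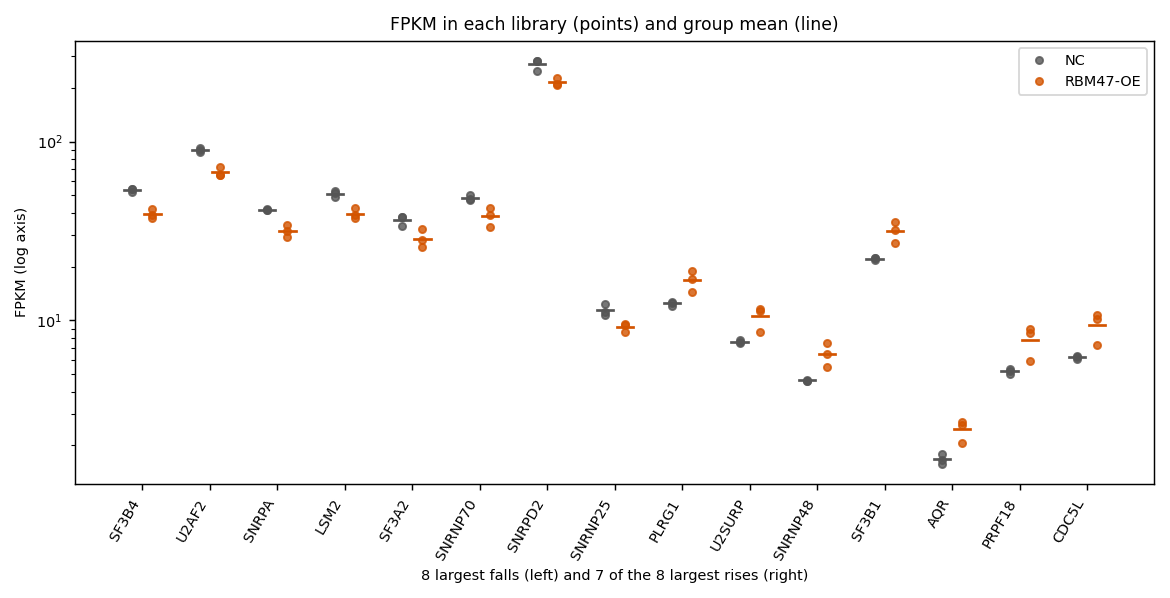
FPKM (log axis) of the 8 members with the largest fall and 7 of the 8 with the largest rise, 1 point per library and a line for each group mean, NC in grey and RBM47-OE in orange. No member shown overlaps between groups, SNRPD2 lies highest and AQR lowest, and the RBM47-OE points of the rising genes are spread more widely than their NC points.

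The 3 RBM47-OE libraries did not move equally. The mean log2 difference from the NC mean over the 12 higher members was 0.19 for RBM47-OE replicate 1, 0.42 for replicate 2 and 0.55 for replicate 3, and the difference was smallest in replicate 1 for 11 of the 12. Over the 25 lower members it was -0.25, -0.44 and -0.34, and replicate 1 had the smallest difference for 20 of the 25. RBM47 itself was at 131.3, 130.4 and 127 FPKM in these libraries. Without RBM47-OE replicate 1, 28 members (48.3%) were lower and 15 (25.9%) higher at an adjusted p under 0.05 (edgeR's quasi-likelihood test), where 21.3% and 23.5% of all genes tested were. In that fit 4 members, AQR, CDC5L and PRPF18 among them, were higher at the study's thresholds, beside 3.89% of all genes tested. What set replicate 1 apart was not tested.

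**Figure D3:**
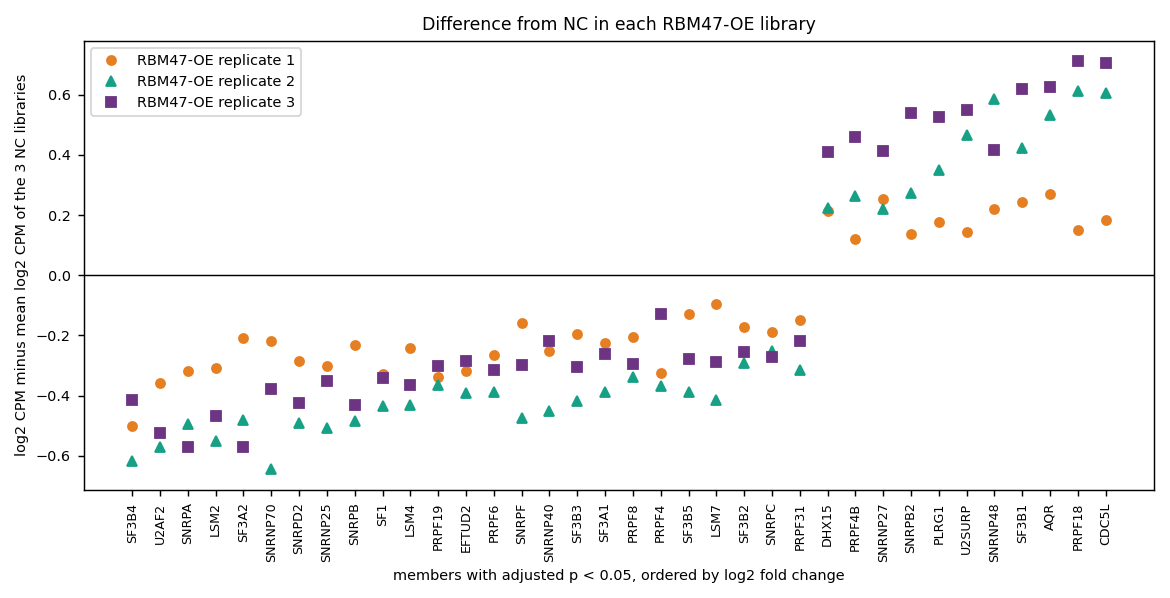
Difference in log2 CPM between each RBM47-OE library and the mean of the 3 NC libraries (vertical axis), for 36 of the 37 members with an adjusted p under 0.05, ordered by log2 fold change. Replicate 1 (circles) lies closest to 0 for 10 of the 11 higher and 20 of the 25 lower members shown.

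The direction of a member's change went with the GC content of its exons. Here GC content is the share of G and C in the merged GENCODE 44 exons of a gene on GRCh38. The median was 54.3% in the lower members, 37.6% in the higher members and 43.0% in the others, beside 45.2% over all 58 and 49.0% over the 16233 tested genes with a value. Of 17 members under 40% GC, 11 rose and 1, SNRPF, fell. Of 19 members from 40% to 50%, 6 fell and 1, PRPF18, rose. Of 18 members from 50% to 60%, 14 fell and none rose, and all 4 members of 60% or more, SF3A2, SNRNP70, U2AF2 and LSM4, fell. The shares of all genes tested in these ranges are not given here. With the GC offset, lower calls over all genes tested went from 16.9% to 8.54% and higher calls from 19.1% to 6.1%. Without the shares of all genes by range, the counts by range do not show whether the members differ from other genes. Spearman's rho across the 58 members between GC content and log2 fold change was -0.75. For the difference of each RBM47-OE library from the NC mean rho was -0.66, -0.68 and -0.79, and for 1 NC library set against the remaining 2 it was -0.30, 0.29 and 0.17. Exonic length had a rho of 0.42 with the log2 fold change and of -0.30 with GC content, and the median length was 2919 bases in the lower and 8298 in the higher members. For the GC content of the promoters rho with the log2 fold change was -0.32 over 50 genes. All these values describe genes that share the same libraries.

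The fit with the GC offset left 24 members lower (41.4%), beside 8.54% of all genes tested, and 2 higher, PRPF18 and PRPF40B, beside 6.1%. The median of the members was -0.17, against 0.001 over all genes, and 48 of the 58 lay below 0, where rho with GC content was -0.07. Of the 25 lower members 17 were lower in both fits, and SNRNP70, SNRNP25, LSM4, PRPF6, SF3B5, LSM7, SF3B2 and PRPF31 were not. SNRPG, U2AF1, SF3A3, LSM6, LSM5, SNRPD1 and PRPF38A were lower in this fit alone. Of the 12 higher members PRPF18 alone was higher in both fits, at 0.40 with the offset (adjusted p = 0.020, edgeR), and DHX15, PRPF4B, SNRNP27, SNRPB2 and PLRG1 changed sign, to between -0.08 and -0.002. The GC value of PRPF18 came from 12262 merged exonic bases. In NC this gene had a mean of 11.1 CPM and 5.19 FPKM, where AQR, with 13431 bases, had 26.1 CPM and 1.67 FPKM. The length behind the deposited FPKM of PRPF18 was therefore shorter, and its GC value and its call with the offset are uncertain.

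By class, the offset raised the lower Sm genes from 3 to 5 of 7 (median -0.30), gave 3 lower of 7 LSm genes (LSM2, LSM5 and LSM6) and 8 lower of 15 U2 genes, and brought the tri-snRNP count from 6 to 4 of 9. The PRP19 complex then held no higher gene and a median of 0.03, and the median of the 6 other splicing factors turned from 0.24 to -0.06. The largest falls with the offset were those of SNRPF (-0.68, adjusted p = 9.9e-05), SNRNP40 (-0.51) and SNRPB (-0.47), and SNRPF then met the study's thresholds. In NC, SNRPB had a mean of 454 CPM and 306 FPKM over 5153 merged bases, and SF1 322 CPM and 46.5 FPKM over 5972. The GC value of SNRPB is therefore uncertain in the same way as that of PRPF18. SF3B4 had -0.34 and U2AF2 -0.26, both smaller than without the offset (edgeR throughout). An offset of this kind takes out all change that goes with GC content, and where that change came from was not tested.

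**Figure D4:**
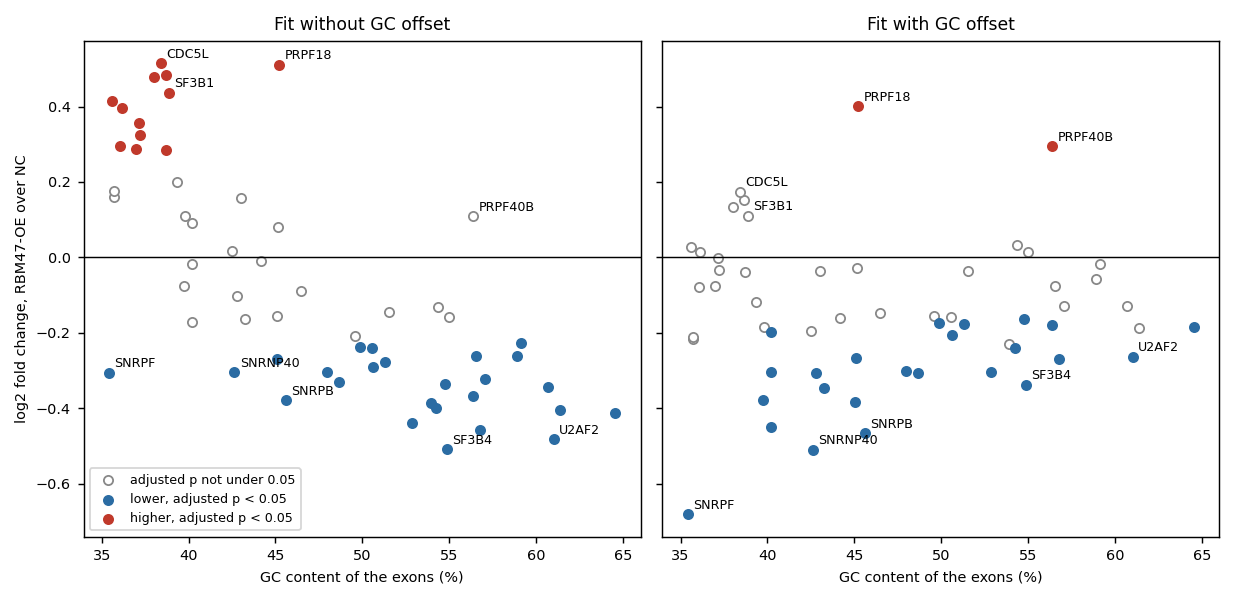
Log2 fold change (RBM47-OE over NC) of the 58 members against the GC content of their exons in percent, from edgeR without (left) and with (right) a GC offset per library, coloured by the call at an adjusted p under 0.05. On the left rho is -0.75 and 11 of the 12 higher members lie under 40% GC. On the right rho is -0.07, most members lie below 0 and PRPF18 and PRPF40B are the 2 higher genes.

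The same 10 members were lower in each of 19 settings, the main one and 18 alternatives of normalization, filter, offset, tool and left-out library. They were SF3B4, SF3B3, SF3A1, U2AF2 and SF1 of the branch site class, SNRPB and SNRPD2 of the Sm core, LSM2, SNRPA and EFTUD2. The share of all genes tested that was lower in all 19 settings is not given here, so these 10 have no background to stand beside. No member was higher in all 19 settings. PRPF18 came nearest, in 18 of 19, and missed the threshold with limma on unfiltered log2(FPKM + 1) values, which called 15 members lower and 5 higher, beside 3.21% and 4.99% of all genes. With 1 library left out, 6 lower members lost the call in at least 1 case: LSM7 (NC replicate 1 or 2 or RBM47-OE replicate 2), PRPF31 (NC replicate 2 or 3 or RBM47-OE replicate 2), SF3B5 (NC replicate 2 or RBM47-OE replicate 2), SF3B2 and SNRPC (NC replicate 2) and PRPF4 (NC replicate 1). Of the higher members 3 did, PRPF4B (NC replicate 3 or RBM47-OE replicate 3), SNRNP27 (NC replicate 3) and SNRPB2 (RBM47-OE replicate 3). Of the 19 settings PRPF31 was lower in 9, LSM7 in 10 and SF3B5 in 11.

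Some members share sequence or strand space with other genes, and their counts are less certain. U2AF1, which binds the AG of the 3' splice site, had 283, 385 and 386 counts in NC and 358, 324 and 308 in RBM47-OE, and U2AF1L5, its near-identical copy in this genome build, had 291, 396 and 367 and 366, 345 and 310. The 2 entries held nearly equal counts in each library. By the methods, uniquely mapped reads were counted, so reads that match both would be dropped, though the counting tool is not named. Of the 11790 different 100-base stretches over all annotated U2AF1 transcripts, 7.07% were also in transcripts of other genes, most often of this copy. The U2AF1 level of 0.913 FPKM is therefore uncertain. The share of recurring stretches was 10.5% for SNRPD3, 6.93% for SNRNP27, 4.95% for SNRPA1 and 4.88% for U2SURP. Processed pseudogenes of the members held at most 0.178% of a member's counts. At least 10% of exonic bases lay under exons of the other strand for 6 members, SNRNP35 (44%, RILPL1), BUD31 (38.7%, PTCD1), PRPF40B (28.0%, FMNL3), PRPF31 (22.0%, PRPF31-AS1), PRPF18 (14.9%, FRMD4A) and PRPF39 (13.3%, FKBP3), and whether the counting used strand is not given in the sources used here. PTCD1 and FKBP3 had log2 fold changes of -0.38 and 0.41 (adjusted p = 6.5e-04 and 3.4e-04, edgeR), and FRMD4A, with a mean of 46.5 counts against 413 for PRPF18, had -0.04. On the same strand MXD1 overlapped 12.5% of the exonic bases of SNRNP27, a higher member, and rose by 0.33 (adjusted p = 0.015, edgeR), and an unnamed gene overlapped 14.0% of those of SNRPD3.

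Other spliceosome proteins, some of them snRNP proteins whose symbols the member rule did not name, changed in both directions in like number. Of 54 genes 15 (27.8%) rose, 17 (31.5%) fell and 22 did not pass the test (edgeR, adjusted p under 0.05), beside 19.1% and 16.9% of all genes tested, with a median log2 fold change of 0.01, and none met the study's thresholds. The largest falls were in PUF60 (-0.47), which acts with U2AF in 3' splice site recognition, CACTIN (-0.40), the tri-snRNP helicase DDX23 (-0.40), XAB2 (-0.35) and the U1-associated LUC7L (-0.35). CDC40, a factor of the second step, rose by 0.56, and SYF2, CWC22, CRNKL1 and CWC27, all proteins of activated spliceosomes, rose by 0.47, 0.45, 0.44 and 0.41. The GC offset gave 3 higher and 16 lower, beside 6.1% and 8.54% of all genes, and the median was then -0.09.

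Genes for snRNP assembly split evenly, with 8 higher (33.3%), 8 lower (33.3%) and 8 uncalled of 24 and a median of -0.02. Of all genes tested, 19.1% were higher and 16.9% lower. Of 3 genes of the methylosome, which methylates Sm proteins before they are loaded, 2 fell, WDR77 by 0.57, from 13.8 ± 0.452 to 9.74 ± 0.909 FPKM, and PRMT5 by 0.41, from 79.9 ± 1.70 to 63.2 ± 2.72 FPKM, and CLNS1A, at 0.044, did not pass the test. GEMIN4, a protein of the SMN complex that loads the Sm ring, fell by 0.55, the U6 processing enzyme USB1 by 0.35 and the snRNA-trimming TOE1 by 0.29. TOE1 was close to the threshold (adjusted p = 0.049, and 0.46 with the GC offset, edgeR). PHAX, the adaptor for snRNA export, rose by 0.45, LARP7 by 0.43, the cap hypermethylase TGS1 by 0.34 and the cap-binding NCBP1 by 0.29. SMN1 rose by 0.36, and its near-identical copy SMN2 had 0.14 and did not pass the test, so that the 2 are uncertain. With the GC offset no gene of this list was higher and 8 were lower, WDR77 at -0.56, GEMIN4 at -0.36 and PRMT5 at -0.36 among them. In that fit 6.1% of all genes tested were higher and 8.54% lower. Of 10 further minor spliceosome proteins, SCNM1 (-0.37) and ZMAT5 (-0.36) fell, CRIPT (0.35) and ZCRB1 (0.27) rose, and the median was -0.06. These shares, 20% in each direction, were near those of all genes tested. With the offset SCNM1 alone of them was called, lower.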

How the data were processed

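Poly(A) RNA of 3 NC and 3 RBM47-OE libraries was used, grouped by their labels. The authors trimmed reads with FASTX-Toolkit, mapped them to GRCh38 using HISAT2, and deposited counts of uniquely mapped reads per gene without normalization. The deposited FPKM values were computed by the authors from the same alignments, scaled by gene length and mapped fragments. The counting tool, the annotation release and the use of strand are not given in the sources used here.

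Counts were tested with edgeR 4.0.16 in R 4.3.3 (filterByExpr with a minimum count of 10 and a minimum total of 15, TMM factors, quasi-likelihood test on the group), and p-values were adjusted by Benjamini-Hochberg over all genes tested. The standard error was the log2 fold change over the root of the F statistic. Between 26792409 and 35477983 counts per library set the counting precision. Values per library are deposited FPKM, and overlap between groups was judged on CPM (counts scaled to library size with TMM factors). The GC offset was a loess curve (span 0.3) per library over exonic GC content from GENCODE 44.

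Alternatives were DESeq2 1.42.0, RLE factors, library totals, no filter or at least 10 counts in every library, a replicate block, GC and length offsets, limma 3.58.1 on log2(FPKM + 1) or log2(FPKM + 0.1) at a mean FPKM of at least 0.1 and without that filter, other thresholds, and each library left out. The scripts were tested on simulated counts. The members, the 8 classes, the 3 lists of other pathway genes and the marker lists were chosen with earlier results of these data known. Values in every library were given for the 8 members with the largest called change in each direction and the most abundant member of each class, and up to 5 genes a direction were named from each list, with RBM47 as the check of the labels. The values of 1 member are not reported here, although it is counted in the totals.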

Additional observations from a re-analysis of the deposited data

How the results depend on the processing

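The log2 fold change of RBM47 passed the threshold in the same direction under all alternatives. With the GC offset 2 members were higher, with or without the replicate block, and the sign of 5 higher members turned, to -0.0378 for DHX15, -0.00165 for PLRG1, -0.0743 for PRPF4B, -0.0785 for SNRNP27 and -0.0328 for SNRPB2 (-0.0396, -0.00218, -0.0751, -0.0805 and -0.0350 with the block). At the study's thresholds the offset gave 1 lower member, SNRPF, with or without the block, where the fit without it gave 0 in either direction. Limma on unfiltered log2(FPKM + 1) values, which tests 28244 genes, called 5 members higher and 15 lower, 20 in all in the 8 classes, beside 4.99% and 3.21% of all genes. The median of the members was -0.0954 with library totals, -0.0831 with limma on log2(FPKM + 0.1) and -0.0772 with limma on log2(FPKM + 1), filtered or not. The cause of these shifts was not tested.

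Leaving out each library in turn gave 20 to 28 lower and 10 to 15 higher members, where 10.2% to 21.3% of all genes were lower and 12.7% to 23.5% higher, and at the study's thresholds 0 to 4 higher (4 without RBM47-OE replicate 1) and 0 lower. The calls in the list of other spliceosome proteins, 32 in all, fell to 19 with the GC offset (19 with the block), 16 with unfiltered limma and 0 at the study's thresholds, and ran from 22 to 40 with a library left out. For the 16 called snRNP assembly factors these values were 8, 9, 5, 0 and 9 to 18 (9 when NC replicate 2 was left out, 10 for NC replicate 3 and 10 for RBM47-OE replicate 3), with 9 at an adjusted p under 0.01. For the 4 called minor spliceosome proteins they were 1, 1, 1, 0 and 2 to 4 (2 when NC replicate 2 or RBM47-OE replicate 3 was left out). Of all genes tested, 16.9% were lower and 19.1% higher. With the GC offset these shares were 8.54% and 6.1% (8.49% and 6.26% with the block). Unfiltered limma gave 3.21% and 4.99%, and the study's thresholds 0.873% and 1.51%. The drop in these lists thus stands beside a drop over all genes. The share of all genes at an adjusted p under 0.01 is not given here.

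The deviations of same-numbered libraries from their group means had correlations of -0.06, -0.01 and -0.02 across genes. With 3 libraries in a group these values do not show whether the libraries were paired by replicate number. The replicate block gave 25 lower and 12 higher members and changed no member's call without the offset.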
